A study of Homo sapiens with 6 samples.

Results

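The interferon regulatory factors (IRFs) are a family of transcription factors, and 8 of their genes were followed here: *IRF1*, *IRF2*, *IRF3*, *IRF4*, *IRF5*, *IRF7*, *IRF8* and *IRF9*. They were chosen by gene symbol, and all 8 were found among the 22807 genes of an RNA sequencing table of 6 libraries. The RNA came from MDA-MB-453, an established HER2+ breast cancer cell line that was labelled wild type in both groups and grown in RPMI medium with fetal bovine serum. In 3 libraries the cells had been transfected with siRNA against *DUSP6*, which encodes a phosphatase that removes phosphate from ERK kinases, and in the other 3 with scrambled siRNA (SCR). The comparison asks which genes change when *DUSP6* is depleted. The study describes 3 different siRNAs in each group, but which siRNA went into which library and how long after transfection the RNA was taken are not given in the sources used here. Every *DUSP6* library thus holds an siRNA that no SCR library holds, and the loss of *DUSP6* and a response to those siRNAs cannot be told apart.

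IRFs share a DNA-binding domain that reads GAAA repeats in the promoters of antiviral genes. In the textbook order of events, foreign RNA or DNA is sensed in the cytoplasm, the kinases TBK1 and IKK-epsilon phosphorylate IRF3 and IRF7, and these switch on interferon genes. Secreted interferon then acts through JAK kinases on STAT proteins, which join IRF9 to form the complex ISGF3 and which also act on *IRF1*. IRF2 binds the same elements as IRF1 and is classically its antagonist, whereas IRF4, IRF5 and IRF8 are best known from immune cells.

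The recovered depth was 45546981 to 85729785 reads per library, at which 1 read is worth a normalized value of 0.0121 to 0.0202. A normalized value is a gene's reads relative to the library total (CPM), after the TMM scaling that evens out differences in composition between libraries, and it is not divided by gene length. *DUSP6* itself had values of 209, 110 and 114 with scrambled siRNA and 39.4, 24.5 and 35.2 with *DUSP6* siRNA, and it was lower in every depleted library (log2 fold change -2.05). Values of single libraries are given in the order of their replicate numbers, from 1 to 3, in each group. The cell line's luminal and apocrine markers were all expressed, with a summed value of 4637 to 5476 in the SCR libraries and 3330 to 3617 in the *DUSP6* siRNA libraries. Of these 8 markers 6 fell, among them *SPDEF* (log2 fold change -1.05) and *ERBB2* (-0.99). Blood cell markers summed to 1.94 to 3.15 and to 5.22 to 5.93, and 8 of 11 were in the table. *FLT3*, a receptor gene that was the only one of them above the test's minimum, rose by 0.90. The pan-leukocyte gene *PTPRC* had 4 reads over the SCR libraries and 10 over the *DUSP6* siRNA libraries, and the dendritic cell gene *ITGAX* had 1 in each group. The part of these marker shifts in the IRF values was not tested.

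Of the 8 IRF genes, 5 had a mean normalized value of at least 1 and were tested, and all 5 were above that value in every library. With *DUSP6* siRNA, *IRF9*, *IRF7* and *IRF1* rose 12.9-fold, 6.69-fold and 5.27-fold, *IRF2* fell 1.97-fold, and *IRF3* was not called. The test was limma on log2(value + 1) over 12862 genes, and a gene was called where its p, adjusted by Benjamini-Hochberg, was under 0.05. By the same rule 19.7% of all genes tested were higher and 24.7% lower, 44.5% in all. The values of the 3 genes that rose did not overlap between the groups, which held for 26.7% of all genes tested in that direction, and those of *IRF2* did not either, which held for 31.1% in its direction. The median log2 fold change was 2.24 over the 5 IRF genes tested and -0.01 over all genes tested. Among the 12862 genes ordered from the highest log2 fold change, *IRF9* stood at place 26, *IRF7* at place 51 and *IRF1* at place 69. *IRF2* stood at place 665 from the lowest. In RNA from a whole culture, a change in the RNA per cell and a change in the share of cells that express a gene cannot be told apart. Nothing in the labels says that the libraries of a group came from separate cultures. The p-values thus measure the spread between these libraries, which may be technical or may hold differences between the siRNAs of a group.

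**Figure D1:**
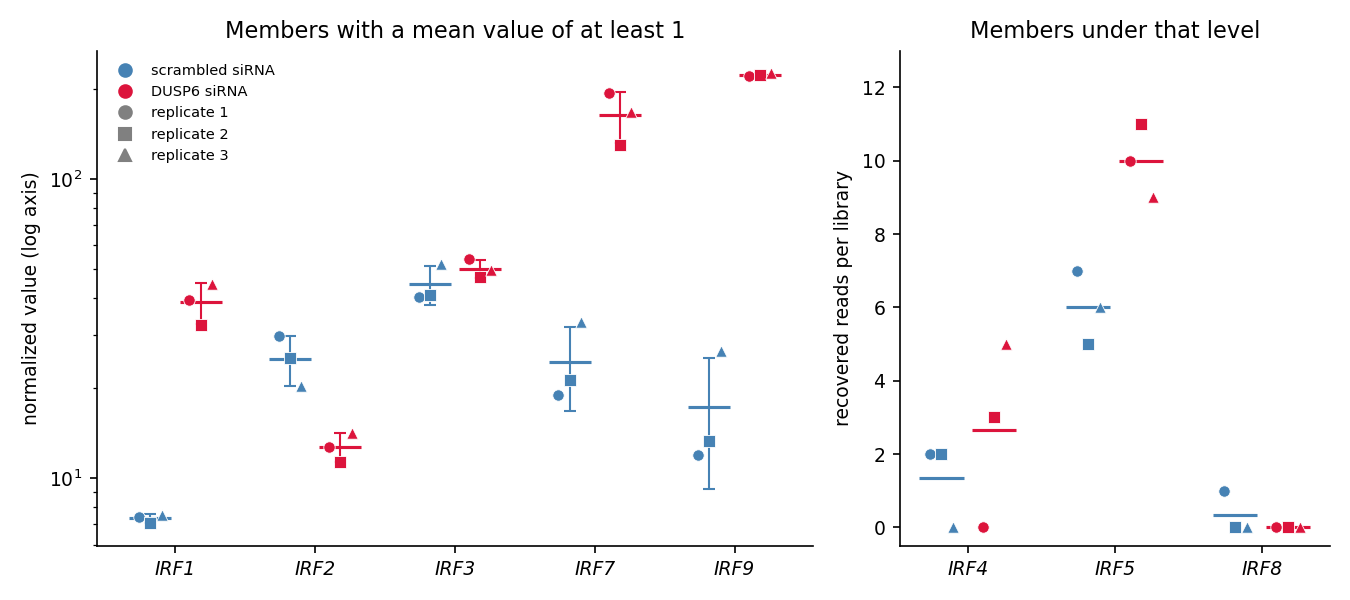
Normalized value on a log axis of the 5 IRF genes tested (left) and recovered reads on a linear axis of the 3 that were not (right), with 1 point per library, bars at the group mean and whiskers of 1 SD on the left. The *DUSP6* siRNA libraries lie above all SCR libraries for *IRF1*, *IRF7* and *IRF9* and below them for *IRF2*, the groups overlap for *IRF3*, and no library has more than 11 reads of *IRF4*, *IRF5* or *IRF8*.

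*IRF3* (Entrez gene 3661) encodes the factor that is present before infection and is activated by phosphorylation. It lies on chromosome 19 of GRCh38 from 49659572 to 49665857 on the minus strand. Its normalized value was 40.4, 41.1 and 52.1 in the SCR libraries and 53.8, 46.9 and 49.5 after *DUSP6* depletion. SCR replicate 3 lay within the range of the *DUSP6* siRNA libraries, so the groups overlapped. The means were 44.5 ± 6.55 and 50.1 ± 3.48 (SD, n = 3 each), and the log2 fold change was 0.17 (standard error, SE, 0.12, adjusted p = 0.258 by limma). The 95% confidence interval ran from -0.09 to 0.44, so a modest rise lies within it and a change of the size seen in *IRF7* does not. Without SCR replicate 3 *IRF3* was called higher, with a log2 fold change of 0.29 (adjusted p = 0.0279 by limma). In that fit 4 rather than 3 IRF genes were higher, and so were 3183 rather than 2540 of the 12862 genes tested. Exons of *BCL2L12* on the opposite strand cover 19.3% of those of *IRF3*, and the counting is not stated to have used strand, so its value is uncertain. *BCL2L12* had a log2 fold change of -0.13 (adjusted p = 0.492 by limma).

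*IRF7* (Entrez gene 3665), the closest relative of IRF3, encodes the factor that interferon itself induces and that carries the later wave of interferon production. The gene lies on chromosome 11 from 612555 to 615950 on the minus strand, and no exon of another gene overlaps its own. Its normalized value was 18.9, 21.2 and 33.2 in the SCR libraries and 193, 130 and 167 after *DUSP6* depletion. The lowest *DUSP6* siRNA library, replicate 2, was far above the highest SCR library, replicate 3. The mean rose from 24.4 ± 7.65 to 163 ± 32.1 (SD, n = 3 each), a log2 fold change of 2.71 (SE 0.21, adjusted p = 2.74e-05 by limma). Within each library, the ratio of the *IRF7* to the *IRF3* value was 0.467, 0.517 and 0.637 with scrambled siRNA and 3.59, 2.76 and 3.38 with *DUSP6* siRNA. Such a ratio of plain values does not depend on how libraries are scaled to each other, whereas with 1 added it does to some extent. On the log2 scale, with 1 added to each value, it moved by 2.54 (SE 0.17), and the groups did not overlap (exact permutation test over libraries, two-sided p = 0.1, the smallest that 3 against 3 allow).

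*IRF9* (Entrez gene 10379) encodes the DNA-binding subunit of ISGF3 and rose the most of the 5. It lies on chromosome 14 from 24161265 to 24166565 on the plus strand. Its normalized value was 12.0, 13.3 and 26.5 in the SCR libraries and 220, 222 and 225 after *DUSP6* depletion. The *DUSP6* siRNA libraries were nearly alike, whereas SCR replicate 3 stood above the other SCR libraries. The coefficient of variation was 1.22% with *DUSP6* siRNA and 46.6% with scrambled siRNA. The mean rose from 17.2 ± 8.03 to 222 ± 2.71 (SD, n = 3 each), a log2 fold change of 3.70 (SE 0.24, adjusted p = 1.07e-05 by limma). Without SCR replicate 3 the log2 fold change was 4.04. Exons of other GENCODE genes cover 27.2% of those of *IRF9*, and a readthrough transcript on the same strand alone covers 23.9%, whereas no other RefSeq gene span overlaps that of *IRF9*. Its value is uncertain as far as the gene models that were counted differ from these.

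*IRF1* (Entrez gene 3659) encodes an activator that interferons and cytokines induce within hours and that drives genes of antigen presentation. It lies on chromosome 5 from 132481609 to 132490773 on the minus strand. Its normalized value was 7.44, 7.07 and 7.52 in the SCR libraries and 39.3, 32.5 and 44.4 after *DUSP6* depletion. The SCR libraries differed little, and all 3 *DUSP6* siRNA libraries lay above them. The mean rose from 7.34 ± 0.24 to 38.7 ± 5.99 (SD, n = 3 each), a log2 fold change of 2.24 (SE 0.13, adjusted p = 5.41e-06 by limma). Exons of the antisense gene *IRF1-AS1* cover 22.9% of those of *IRF1* in GENCODE, whereas the RefSeq spans of these genes do not overlap. *IRF1-AS1* had 6, 4 and 9 reads with scrambled siRNA and 102, 103 and 150 reads with *DUSP6* siRNA, against 369 to 624 and 1943 to 2874 reads of *IRF1*. The antisense gene was thus also higher in every *DUSP6* siRNA library. The authors counted on RefSeq models, so reads of the one would enter the other only if the version they used overlapped as in GENCODE, which was not tested.

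*IRF2* (Entrez gene 3660), the gene of the classical IRF1 antagonist, moved the other way. It lies on chromosome 4 from 184387729 to 184474550 on the minus strand, and no exon of another gene overlaps its own. Its normalized value was 29.8, 25.1 and 20.3 in the SCR libraries and 12.7, 11.3 and 14.2 after *DUSP6* depletion. SCR replicate 3, the highest of the SCR libraries for *IRF7* and *IRF9*, was the lowest of them for *IRF2*, and it still lay above every *DUSP6* siRNA library. The mean fell from 25.1 ± 4.77 to 12.7 ± 1.41 (SD, n = 3 each), a log2 fold change of -0.92 (SE 0.15, adjusted p = 0.00136 by limma). The ratio of the *IRF1* to the *IRF2* value within a library was 0.249, 0.281 and 0.371 with scrambled siRNA and 3.10, 2.86 and 3.14 with *DUSP6* siRNA. In these values, which are not divided by length, *IRF2* was thus higher in every SCR library and *IRF1* in every *DUSP6* siRNA library. The same order held in every library with the lengths used below. The log2 ratio, with 1 added to each value, went from -1.63 ± 0.28 to 1.53 ± 0.08 (SD, n = 3 each), a difference of 3.16 (SE 0.17, exact permutation test over libraries, two-sided p = 0.1, the smallest possible).

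**Figure D2:**
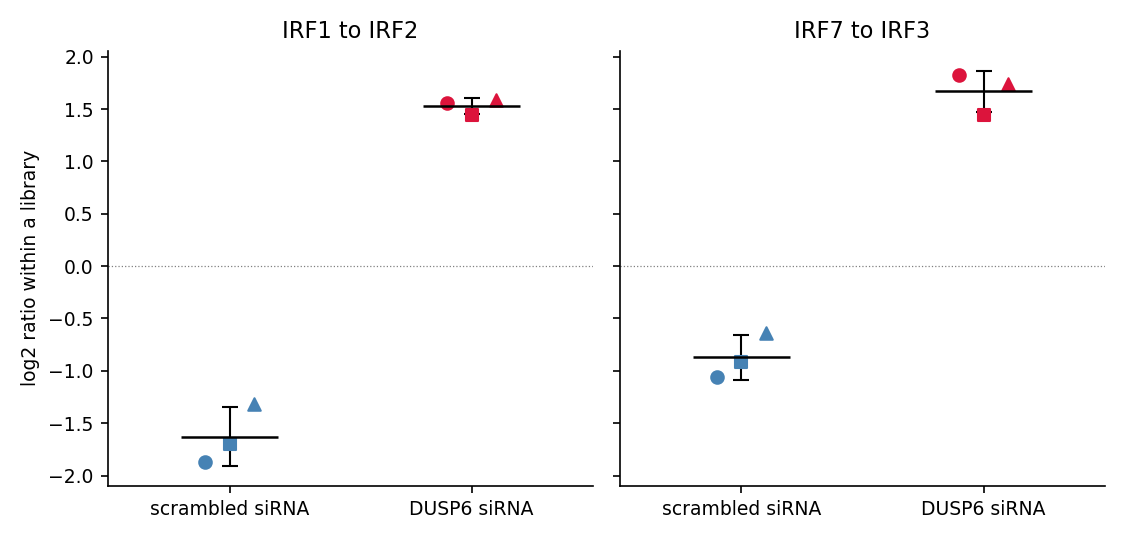
Log2 ratio of *IRF1* to *IRF2* (left) and of *IRF7* to *IRF3* (right) within each library, with 1 point per library, the group mean as a bar and whiskers of 1 SD. The values have 1 added and are not divided by length. All SCR libraries lie below 0 and all *DUSP6* siRNA libraries above it, with differences of 3.16 and 2.54 between the group means.

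*IRF4* (Entrez gene 3662, chromosome 6 from 391752 to 411443, plus strand), *IRF5* (Entrez gene 3663, chromosome 7 from 128937032 to 128950038, plus strand) and *IRF8* (Entrez gene 3394, chromosome 16 from 85899162 to 85922609, plus strand) had at most 11 reads in any library. *IRF4*, a regulator of lymphocytes, had 2, 2 and 0 reads in the SCR libraries and 0, 3 and 5 reads after *DUSP6* depletion, and the groups overlapped (two-sided exact permutation test of the values, p = 0.7). *IRF8*, a regulator of myeloid cells, had 1 read in SCR replicate 1 and 0 in the other 5 libraries, and a count of 0 allows up to 3 reads in a library, counting error only. *IRF5*, which acts downstream of Toll-like receptors, had 7, 5 and 6 reads with scrambled siRNA and 10, 11 and 9 reads with *DUSP6* siRNA. Its normalized values were 0.104, 0.0958 and 0.0723 against 0.202, 0.135 and 0.139, so the groups did not overlap (exact permutation p = 0.1, the smallest possible). Tested without the minimum on mean values, *IRF5* was called neither by limma (adjusted p = 0.059) nor by edgeR's quasi-likelihood test (adjusted p = 0.272). No difference in these 3 genes passed a test at this depth.

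**Figure D3:**
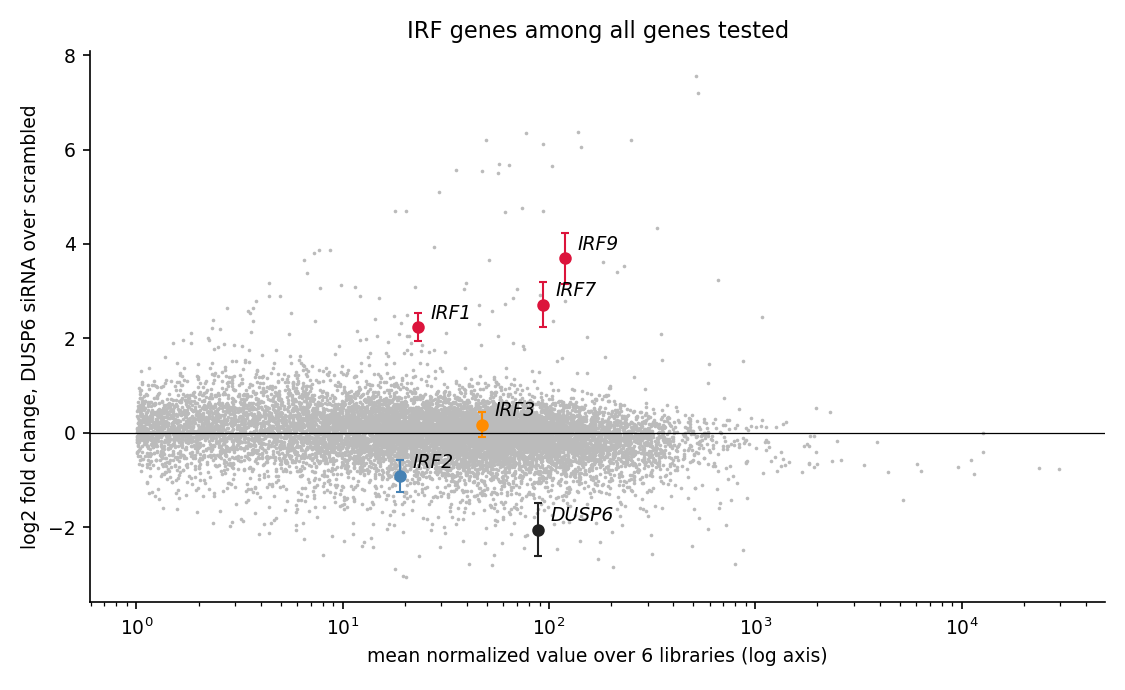
Log2 fold change, *DUSP6* siRNA over scrambled siRNA, against the mean normalized value over the 6 libraries on a log axis for the 12862 genes tested (grey), with the 5 IRF genes and *DUSP6* marked and their 95% confidence intervals as whiskers. *IRF9* (3.70), *IRF7* (2.71) and *IRF1* (2.24) stand at places 26, 51 and 69 from the highest, *IRF3* (0.17) lies in the main body of genes, and *IRF2* (-0.92) stands at place 665 from the lowest.

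Levels can be set against each other between genes only per length, so each normalized value was divided by the length of the gene's merged exons in kilobases. In the SCR libraries *IRF3* had the highest level per kb, 11.7 ± 1.73 (SD, n = 3), followed by *IRF7* with 9.36 ± 2.93, *IRF2* with 3.73 ± 0.71, *IRF9* with 2.67 ± 1.24 and *IRF1* with 0.599 ± 0.02. The ranges of *IRF3* and *IRF7* overlapped across libraries, although *IRF3* was above *IRF7* within every SCR library. Those of *IRF2* and *IRF9* overlapped too, and *IRF9* was above *IRF2* in SCR replicate 3 only. In the *DUSP6* siRNA libraries the order was *IRF7* with 62.6 ± 12.3, *IRF9* with 34.4 ± 0.42, *IRF3* with 13.2 ± 0.92, *IRF1* with 3.16 ± 0.49 and *IRF2* with 1.89 ± 0.21, and no neighboring ranges overlapped. *IRF3* was thus first in every SCR library and lay behind *IRF7* and *IRF9* in every *DUSP6* siRNA library, and *IRF1* and *IRF2* changed places. With the length of 1 reference (MANE) transcript per gene, *IRF9* rather than *IRF7* was highest with *DUSP6* siRNA, at 137 ± 1.67 against 85.0 ± 16.7 per kb. With that length *IRF2*, *IRF7* and *IRF9* were close to each other with scrambled siRNA, at 11.1, 12.7 and 10.6 per kb. *IRF5*, *IRF4* and *IRF8* followed in last place, with *IRF5* above the other 2 in every library and at 0.0128 and 0.0223 per kb of merged exon in the 2 groups. The ranges of *IRF4* and *IRF8* overlapped, both reaching 0.

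**Figure D4:**
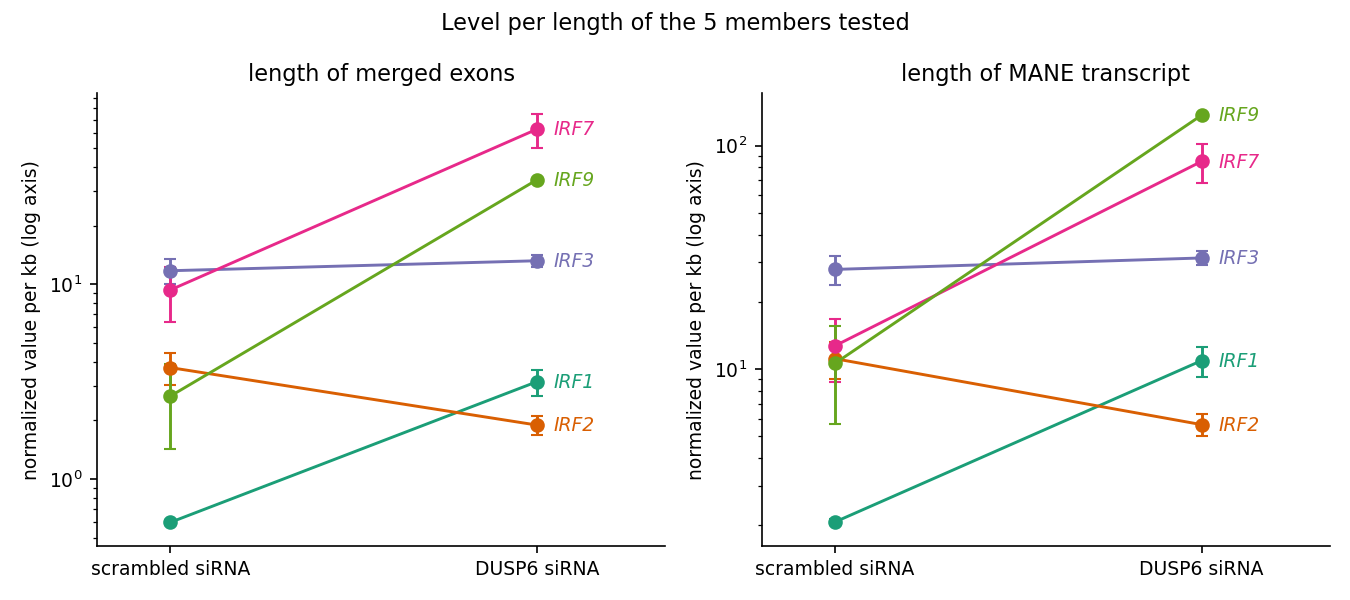
Normalized value per kb on a log axis for the 5 IRF genes tested, with the length of merged exons (left) or of the MANE transcript (right), as group means with whiskers of 1 SD (n = 3). The lines of *IRF7* and *IRF9* cross that of *IRF3* upward and those of *IRF1* and *IRF2* cross each other with either length, while the order of *IRF7* and *IRF9* with *DUSP6* siRNA depends on the length.

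Promoter sequence was looked up for the members in RefSeq's promoter table (GRCh38.p14), which held 9 windows for 5 of the 8, namely *IRF1*, *IRF4*, *IRF5*, *IRF8* and *IRF9*. The 250 bases before each start were searched on both strands for the STAT element GAS (TTCNNNGAA), for the IRF core (AANNGAAA) and for the full interferon-stimulated response element (GAAANNGAAA), within which the IRF core lies. The windows of *IRF1* and *IRF9* are shown because these are the genes that rose and for which the table held a window. They read 5′ to 3′ on the strand of the gene, with matches to the motifs in capitals. The *IRF1* window is chr5:132490774-132491023 on the minus strand and the *IRF9* window is chr14:24161015-24161264 on the plus strand.
IRF1: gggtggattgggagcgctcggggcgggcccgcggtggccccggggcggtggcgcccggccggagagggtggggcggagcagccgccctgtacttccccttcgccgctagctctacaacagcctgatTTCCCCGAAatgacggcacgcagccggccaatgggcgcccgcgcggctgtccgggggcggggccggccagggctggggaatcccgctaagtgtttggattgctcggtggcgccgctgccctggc
IRF9: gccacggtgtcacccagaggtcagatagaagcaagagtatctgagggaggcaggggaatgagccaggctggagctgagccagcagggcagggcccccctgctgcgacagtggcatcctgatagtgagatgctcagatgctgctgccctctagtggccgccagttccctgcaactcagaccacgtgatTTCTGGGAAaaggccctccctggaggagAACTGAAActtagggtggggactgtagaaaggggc
The *IRF1* window held 1 GAS match, TTCCCCGAA, from 124 to 116 bases before the start. The *IRF9* window held a GAS match, TTCTGGGAA, from 63 to 55 bases before the start and an IRF core match, AACTGAAA, from 35 to 28 bases before it. Of 35116 such windows over all genes, several per gene in part, 6.57% held a GAS match, 20.3% an IRF core match and 3.02% a full element. Among the genes at a few reads, *IRF8* and 1 of the 4 windows of *IRF5* held IRF core matches and *IRF4* held none of these motifs. No window of the 5 genes held the full element. A match describes the letters and does not show that a factor binds there.

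Around the IRF genes, the interferon genes that IRF3 and IRF7 switch on were higher. Of 6 in the table, 4 were tested. All 4 had SCR means under 1 and passed the minimum only through the *DUSP6* siRNA libraries, so the direction of these 4 was set by that minimum and their number says nothing further. They rose by limma's call, with log2 fold changes of 3.66 in *IFNL1*, 3.17 in *IFNL2*, 2.64 in *IFNL3* and 1.97 in *IFNB1*. The sequences of *IFNL2* and *IFNL3* are almost the same, so how reads were divided between them is uncertain. *IFNB1*, the gene of interferon beta, had 1, 0 and 10 reads in the SCR libraries and 181, 129 and 303 reads after *DUSP6* depletion. Summed over the 6 genes, the reads were 5, 2 and 29 against 1709, 1495 and 2478. SCR replicate 3, the library with the highest *IRF7* and *IRF9* values of its group, also had the most interferon reads of its group, and their part in those values was not tested. The interferon alpha gene *IFNA1* and *IFNK* stayed at 2 reads or fewer over a whole group.

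Of the sensors, adaptors and kinases upstream of IRF3, IRF5 and IRF7, 17 were tested from a list of 19, and 6 rose, 3 fell and 8 were not called, with a median log2 fold change of 0.14. Over all genes tested 19.7% were higher, 24.7% lower and 44.5% called, and with 17 genes nothing is read from the list's own counts. The RNA sensor genes rose the most, with log2 fold changes of 4.35 in *DDX58* (RIG-I), 3.41 in *IFIH1* (MDA5) and 3.13 in *DHX58* (LGP2). *IKBKE*, which encodes the IRF3 and IRF7 kinase IKK-epsilon, had values of 27.9, 25.7 and 28.7 with scrambled siRNA and 9.50, 7.08 and 7.65 with *DUSP6* siRNA. It fell by 1.65 on the log2 scale (adjusted p = 2.37e-05 by limma), while its relative *TBK1* rose by 0.37 (adjusted p = 0.0165 by limma). The DNA sensor gene *CGAS* (-0.39) and the RIG-I adaptor gene *MAVS* (-0.24) were the other 2 that fell. The count of lower genes was 1 in place of 3 when the values were rescaled by the median of ratios, and also without SCR replicate 1 or without any one of the *DUSP6* siRNA libraries.

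Of the receptors, JAK kinases and STAT partners of IRF9, 10 were tested from a list of 11, 6 rose and 4 were not called, against 19.7% of all genes higher, and the median log2 fold change was 0.41. *STAT2*, a partner of IRF9 in ISGF3, rose by 1.51, and the kinase genes *JAK2* and *TYK2* rose by 1.15 and 0.56. Of the binding partners and regulators of the family 8 were tested. Among the 7 with a mean of at least 1 in both groups, 5 fell, 1 rose and 1 was not called, with a median of -0.51. Over all genes tested 24.7% were lower and 19.7% higher, and nothing is read from the counts of so few genes. *BATF* passed only through the SCR libraries, so its direction was set by the minimum. *IRF2BPL*, a relative of the IRF2 co-repressor genes, fell by 1.01, *BATF*, a partner of IRF4 and IRF8, by 0.99, and the coactivator genes *EP300* and *CREBBP* by 0.61 and 0.60. *TRIM21*, a ubiquitin ligase gene that interferon induces, rose by 2.05.

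Genes that are known targets of single IRFs were described from 3 further lists. In each, some genes passed the minimum only through the *DUSP6* siRNA libraries, which sets their direction, so the counts and medians given are those of genes with a mean of at least 1 in both groups. Of the IRF3 direct list these were 7 of 8, and all 7 rose, against 19.7% of all genes tested, with a median log2 fold change of 6.11. The list was led by *IFIT1* (7.19), *OASL* (6.37), *IFIT2* (6.21) and *IFIT3* (6.11), while *IRF3* itself was not called. Of the IRF9 and STAT list of 20 they were 8, and all 8 rose, against the same 19.7%, with a median of 4.55. In that list 8 more were tested with SCR means under 1. The largest log2 fold changes of all 16 were in *IFI6* (7.56), *OAS2* (6.34), *IFI44L* (6.21) and *HERC5* (5.69). Of these, *OAS2* and *IFI44L* had SCR means under 1, at 0.919 and 0.317, so the minimum set their direction. Of the IRF1 list of 18 they were 7, of which 5 rose, 1 fell and 1 was not called, with a median of 2.71. Of all genes tested 19.7% were higher and 24.7% lower. In the IRF1 list 3 more were tested with SCR means under 1. *TAP1* (3.17), *PSMB8* (3.10), *TAP2* (2.72) and *NLRC5* (2.71), which serve antigen presentation on MHC class I, had the largest increases. *GBP2*, a guanylate-binding protein gene, went against the rest with a mean value of 17.6 ± 8.98 with scrambled siRNA and 2.61 ± 0.92 with *DUSP6* siRNA (SD, n = 3 each), a log2 fold change of -2.30 (adjusted p = 4.85e-04 by limma). Many of these genes answer to several IRFs, so the lists are not separate readouts of single factors. The shares over all genes tested were not worked out for only the genes with a mean of at least 1 in both groups. Exons of neighbors in GENCODE cover more than 5% of those of *IFNA1*, *DUSP6*, *ERBB2*, *DDX58*, *IRF2BPL*, *IFIT2*, *IFI6*, *TAP1*, *TAP2*, *PSMB8*, *CMPK2* and *GBP2*, so their values are uncertain.

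**Figure D5:**
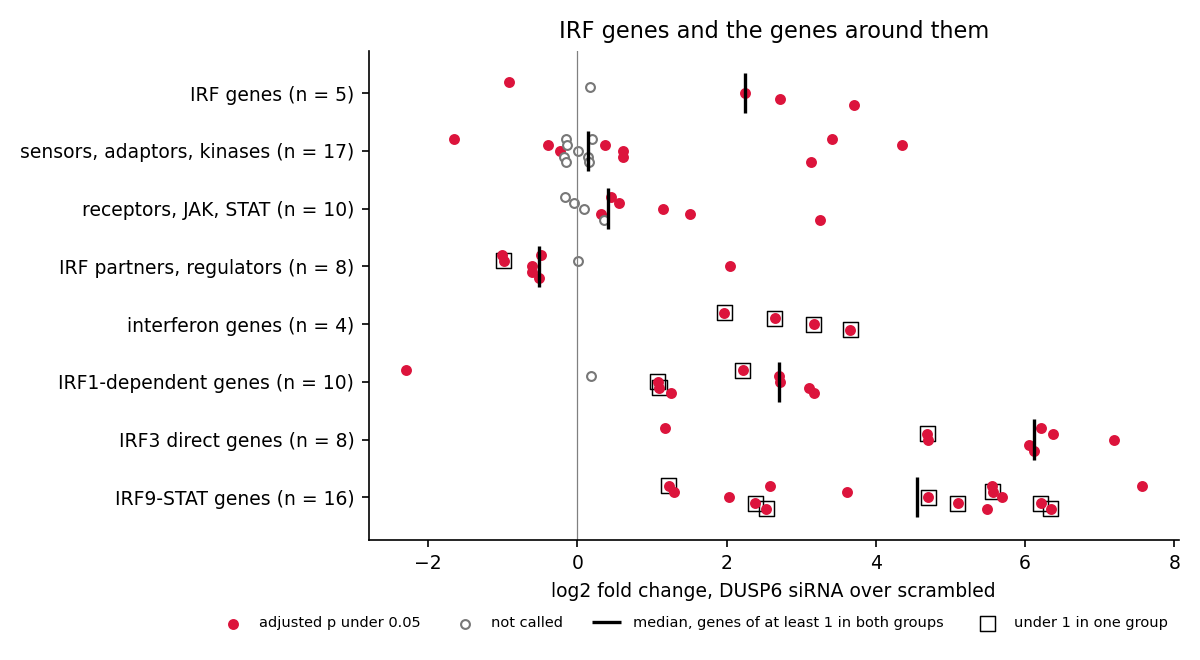
Log2 fold change, *DUSP6* siRNA over scrambled siRNA, of every tested gene of the IRF family and of 7 lists around it, with filled points for an adjusted p under 0.05, open points for genes not called, squares around genes with a mean under 1 in one group and bars at the median of the others. These medians are 6.11 for the IRF3 direct list, 4.55 for the IRF9 and STAT list and -0.51 for the binding partners, all 4 interferon genes carry a square, and most sensors, adaptors and kinases lie near 0.

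The genes whose pattern over the 6 libraries was most like that of each called IRF gene were found by Pearson's r of log2(value + 1), as a description. The 2 groups set most of each r, and 574 to 972 genes had an r above 0.95 with a given member. For *IRF1* they were *PARP9*, *APOL3* and *CMPK2*, and for *IRF7* *REC8*, *PARP10* and *ISG15*. For *IRF9* they were *PRR3*, *ZNF333* and *DDX60*, whose log2 fold changes of 0.36, 0.73 and 5.65 show that a like pattern can go with very unlike sizes. For *IRF2* they were *ZNF93*, *NCKAP5* and *UEVLD*, all lower with *DUSP6* siRNA, with log2 fold changes of -0.58, -1.37 and -0.43. Overlap with neighboring genes was not assessed for these genes other than *CMPK2* and *ISG15*.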

How the data were processed

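RNA from 3 *DUSP6* siRNA and 3 scrambled siRNA libraries of MDA-MB-453 cells had been sequenced after TruSeq Stranded mRNA preparation. The authors aligned the reads to hg38 and assigned them to RefSeq genes with Rsubread at default settings, and deposited 1 linear signal value per gene and library. Their processing notes name edgeR. Divided by the value of 1 read in its library, each value was whole (100% of values, tolerance 0.001), and the steps gave edgeR's TMM scaling. limma 3.58.1 in R 4.3.3 (lmFit, eBayes with a trend) was run on log2(value + 1) for genes whose mean value was 1 or more, which understates the changes of low genes. The scripts were tested on simulated data.

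The members and gene lists were chosen with earlier results of these data known. Named were all members, *DUSP6*, up to 4 called genes per list with the largest changes, list members called against the majority, and the 3 genes most like each called member. Some genes that this rule names are not reported here. *TBK1*, *PTPRC*, *ITGAX*, *IFNA1* and *IFNK* were added after their values were seen. Positions are from RefSeq, lengths and exon overlaps from GENCODE v44 on GRCh38. Alternatives were other pseudocounts, filters and scalings, a replicate block, edgeR 4.0.16 on the recovered reads and leaving out each library. The other cell lines and assays of the study were not analysed here.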

Additional observations from a re-analysis of the deposited data

How the results depend on the processing

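The calls of *IRF1*, *IRF2*, *IRF7* and *IRF9* held under all 15 alternatives, with log2 fold changes of 2.14 to 2.40, -1.05 to -0.79, 2.56 to 2.95 and 3.50 to 4.04. *IRF3* ranged from 0.11 to 0.29 when each library was left out in turn, and was called only without SCR replicate 3. Over all genes tested, 2540 were higher, 1639 at a mean value of at least 10, where fewer genes were tested, and 1574 (without *DUSP6* siRNA replicate 2) to 3183 (without SCR replicate 3) with 1 library left out. Higher and lower genes numbered 2958 and 2887 under quantile normalization against 2540 and 3179, and the cause was not tested. Libraries with the same replicate number showed no shared deviation from their group means (correlations of 0.005, 0.087 and -0.076). Libraries with different numbers had correlations of -0.091 to 0.132. Whether libraries were handled in pairs is not known from this. With a replicate block 2495 genes were higher and 3096 lower, *IRF3* had an adjusted p of 0.287 in limma, and no call of an IRF gene changed. At a mean value of at least 10 no interferon gene was tested, and 5 genes of the IRF1 list rose and 1 fell. Over all genes 1639 were higher and 2640 lower at that level. Without a filter 3 binding partners rose and 6 fell, and 2981 of all 22807 genes were higher and 3201 lower. Nothing is read from these list counts. Depth limits *IRF4*, *IRF5* and *IRF8*, with at most 11 reads in a library. The edgeR test without a filter and the MANE lengths were chosen after seeing the data.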

Other observations

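Some genes of the pathway lists lay under the minimum mean value and are given by their reads, chosen after the values were seen and with no test. *TLR3*, the endosomal sensor of double-stranded RNA, had 4, 1 and 2 reads in the SCR libraries and 30, 38 and 56 reads after *DUSP6* depletion. *STING1*, the adaptor of the DNA sensor cGAS, went the other way, with 73, 48 and 76 reads against 10, 14 and 18. *BATF2*, which encodes a partner of IRF1, had 0, 0 and 4 reads against 59, 34 and 80.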
